A study of Mus musculus with 18 samples.

Results

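The genes described here encode the proteins of the cytosolic ribosome. They were taken as the array genes whose symbol starts with Rpl or Rps and a number, or is Rplp0, Rplp1, Rplp2 or Rpsa, without the Rps6k kinases and the pseudogene symbols. Of 75 genes with such symbols, 6 kinases and 1 pseudogene were left out, which gave 68 of the 19505 genes measured. The 68 comprise 33 canonical proteins of the large subunit, 22 of the small subunit, and 13 paralogues, retrogenes or binding proteins, among them Rpl22l1, Rps27l and Rps27rt. Each of the 68 had 1 probe set. Canonical genes without a singly named probe set were not analysed here.

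RNA was measured on 1 array per mouse in bone marrow preparations labelled as mesenchymal cells (BM-MSC). The mice of 12 weeks numbered 5 BALB/c and 5 NeuT, and those of 24 weeks 4 of each strain. BALB/c mice were the controls. NeuT mice, which carry an activated rat Erbb2 (neu) transgene and develop mammary tumours, are labelled tumour-bearing at both ages, at an early stage of tumorigenesis at 12 weeks and a late stage at 24 weeks, so transgene and tumour cannot be told apart. All cells came from femurs and tibias by depletion with beads against CD45, Ter119, CD11b, CD11c, CD3, Gr1 and B220, and were checked for CD29 and CD44. The question is how such cells from tumour-bearing mice differ from those of control mice at each age, and how each group differs with age. Values are log2 signals, on which a difference of 1 is a doubling.

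The ribosome joins a small subunit, which reads the messenger RNA, to a large subunit, which forms the peptide bond. Most of their proteins are present once per ribosome, and most of their transcripts begin with a C followed by an unbroken run of pyrimidines (C or T), the 5′ terminal oligopyrimidine (TOP) motif, through which mTORC1 signalling controls their translation. Control of this kind acts on ribosome loading, which transcript levels do not measure. In the marrow, shortage of single ribosomal proteins such as Rps19, Rps24 and Rpl35a is known as the cause of Diamond-Blackfan anaemia.

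Start sites of some members named below are shown first, chosen because a run of at least 5 pyrimidines covers the annotated start. This is looser than the TOP motif, as the run may lie before the start and the first base may be T. Rpl7a, Rpl39 and Rps24 have T at the annotated start. The run of Rpl39 ends there, and most of the run of Rpl31 lies before its start. RefSeq promoter windows of the mouse build GRCm38.p6 were matched for 55 of the 68 genes. Each line gives 10 bases before and 20 bases from the annotated start, and capitals mark the run of pyrimidines that covers the first transcribed base. For Rpl35a and Rps24, which have 3 and 2 annotated starts, the start with the longest run is shown, and the others have runs of 4, 0 and 0. Rpl22, with a G at the annotated start, and Rpl3l, a striated muscle paralogue of Rpl3, are shown for contrast. Named members without a pyrimidine at the annotated start also include Rpl11, Rpl19, Rpl23, Rpl41, Rps16, Rps19 and Rpsa.
Rpl7a, chr2:26910797-26910826, plus strand: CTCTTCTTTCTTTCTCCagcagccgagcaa
Rpl31, chr1:39367841-39367870, plus strand: tcctcgCCTCCCCgtgacccggaagttgta
Rpl35, chr2:39005112-39005141, minus strand: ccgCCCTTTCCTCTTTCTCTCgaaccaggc
Rpl35a, chr16:33056472-33056501, plus strand: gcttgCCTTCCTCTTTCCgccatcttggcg
Rpl39, chrX:37085203-37085232, minus strand: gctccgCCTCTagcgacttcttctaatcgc
Rps15a, chr7:118116128-118116157, minus strand: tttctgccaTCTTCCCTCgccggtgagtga
Rps24, chr14:24490668-24490697, plus strand: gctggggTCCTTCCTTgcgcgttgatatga
Rps27rt, chr9:114982720-114982749, minus strand: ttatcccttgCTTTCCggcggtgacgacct
Rpl32l, chr10:20208429-20208458, plus strand: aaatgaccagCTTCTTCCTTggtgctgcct
Rpl22, chr4:152324426-152324455, plus strand: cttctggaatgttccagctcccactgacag
Rpl3l, chr17:24727816-24727845, plus strand: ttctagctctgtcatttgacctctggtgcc

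Among 52 windows of 43 canonical genes, 34.6% had C at the annotated start and 30.8% had a run of at least 5 pyrimidines over it. Over all 32851 windows of the table, these shares were 16.3% and 10.1%. A C followed by pyrimidines to a run of at least 5 from the start itself was present in 21.2% of the canonical windows and 2.51% of all windows. In the full windows, 250 bases before to 50 after the start, searched on both strands, CCGGAAG, the core bound by ETS factors, was found in 38.5% of canonical and 8.86% of all windows. GGGCGG, the SP1 box, was found in 57.7% and 35.7%, and TATAAA in 9.62% and 13.6%. Annotated starts can lie some bases from the site in use in these cells, so a missing run describes the annotation only.

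A few arrays stood apart. In BALB/c 24-week replicate 1 the top of the signal range was lower than in the other 17 arrays: its highest gene read 13.68, against 14.06 to 14.24, and its median gene 8.43, against 8.50 to 8.56. The other BALB/c 24-week array with low values for the members was replicate 3. In it, dim genes in general read high and bright genes low. Relative to each gene's mean over all arrays, non-members with means from 7 to 8 had a median of 0.16. Those with means from 11 to 12 had -0.073. NeuT 12-week replicate 4 correlated least with the remaining arrays (median 0.987), followed by BALB/c 24-week replicate 3 (0.988), while replicate 1 of the older NeuT group came next (0.991). NeuT 12-week replicate 4 had the highest member median and the highest value of Rpl39, and without it the median of the members at 12 weeks was 0.025. In that fit no assembly gene was called higher at 12 weeks, and 1.55% of all genes were called, against 3.84% with all arrays. Stromal markers, a chosen list without the genes of CD29 and CD44, had array means of 8.23 to 8.54 over 18 genes. Of these, 3 genes were under the median of the negative controls (7.35). Markers of neutrophils averaged 10.6 to 12.1 over 15 genes and markers of B cells 9.44 to 11.1 over 13 genes, so transcripts of depleted blood cells were present in all groups. With limma, 6 of the 15 neutrophil markers rose in NeuT mice at each age, and 0 and 3 of the 13 B-cell markers fell at 12 and 24 weeks. The B-cell markers still had median differences of -0.56 and -0.84 at those ages, and 9 and 11 of them had an unadjusted p under 0.05. Of all genes 3.15% were called higher and 0.687% lower at 12 weeks, and 1.18% and 0.22% at 24 weeks. Of the other marker lists, 4 of 11 monocyte genes rose and 1 fell at 12 weeks, 1 of 11 T and NK cell genes rose at each age and 3 fell at 24 weeks, 2 of 10 progenitor genes rose at 12 weeks, 3 of 18 stromal genes rose at 24 weeks, and none of 8 erythroid genes passed at either age. The part of these cells in the results below was not tested beyond a fit with the neutrophil and B-cell means as covariates. That fit called 0.0205% of all genes at 12 weeks and 0.0103% at 24 weeks, against 3.84% and 1.4% in the main fit. A call that ends in it is therefore not particular to the gene. In such mixed preparations, a change in cell numbers and a change in RNA per cell cannot be told apart.

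The ribosomal protein genes gave some of the highest signals of the array. Of the 196 genes in the top 1%, 38 were members, as were 33 of the 137 genes with a mean above 13. The canonical genes had means between 9.94 and 14.02, with a median of 13.27, against 8.50 over all genes. Probe sets bind with different strength, so their order is not that of transcript numbers, and signals are read here against the negative controls, whose 95th percentile was 10.5. In every array 61 of the 68 genes, including 54 of the 55 canonical ones, lay above that percentile, and Rpl39 was the canonical exception.

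The highest means were those of Rpl41, the shortest ribosomal protein, at 14.02, of Rpsa, a small-subunit protein also known as the laminin receptor, at 14.00, and of Rpl35 at 13.80. Rpl41 read 14.00 to 14.05 in the BALB/c mice and 14.01 to 14.07 in the NeuT mice at 12 weeks, and 14.04 to 14.09 in the NeuT mice at 24 weeks. Among the BALB/c mice of 24 weeks it read 13.63, 14.04, 14.02 and 14.08, so 1 array lay below all others. The lowest means belonged to paralogues: Rpl39l, a testis paralogue of Rpl39, at 6.84 was the only member under the negative control median, and Rps23rg1, a retrogene of Rps23, and Rpl3l read 8.34 and 9.06.

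**Figure D1:**
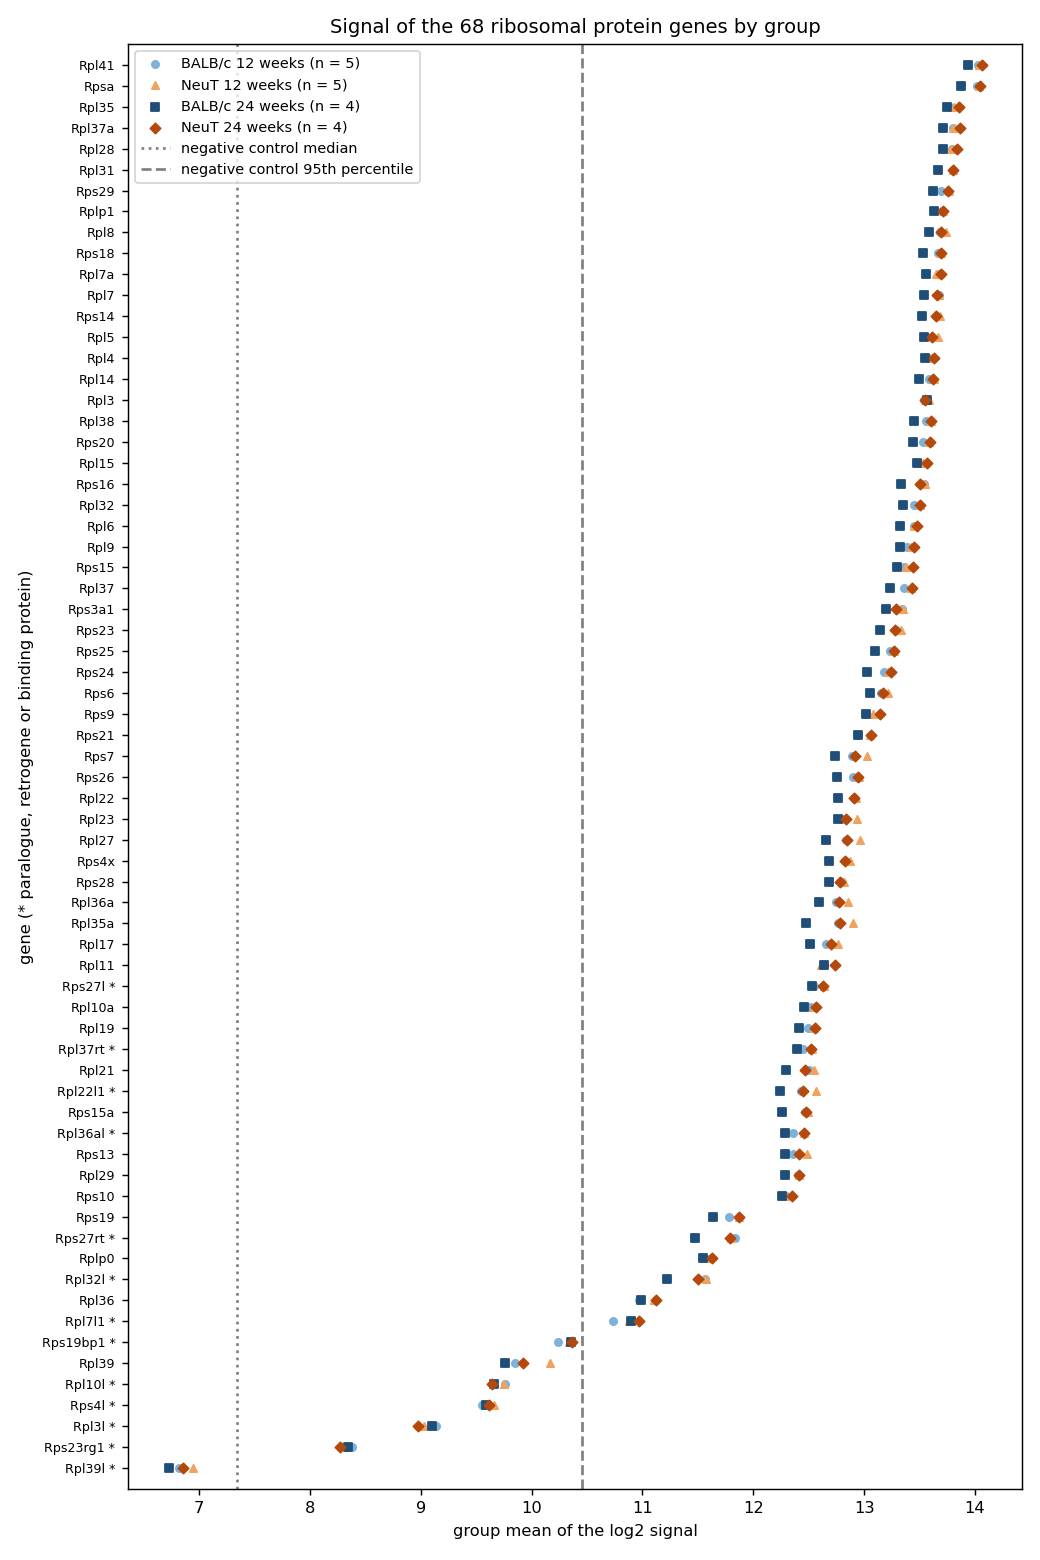
Group means of the log2 signal (horizontal axis) for the 68 genes (vertical axis, ordered by mean), with a symbol for each of the 4 groups and lines at the median and 95th percentile of the negative controls. The groups lie close together for each gene, the BALB/c 24-week mean is the lowest for most genes of high signal, and Rpl39l alone lies under the control median of 7.35.

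The canonical genes also varied little among mice of a group. Their standard deviation (SD) within groups had a median of 0.0892 and ran from 0.0574 to 0.174, against a median of 0.138 for all genes and 0.0985 for the 104 other genes with a mean above 13. The widest spreads among the members were those of Rps27rt, a retrogene of Rps27 (0.191), Rps19, the gene most often mutated in Diamond-Blackfan anaemia (0.174), and Rpl32l (0.173). Probes for a retrogene can also bind the transcript of its parent gene, so the signals of Rps27rt, Rpl32l, Rpl37rt and Rps23rg1 are uncertain in origin.

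At 12 weeks no ribosomal protein gene passed the test between NeuT and BALB/c mice. The median difference (NeuT minus BALB/c) over the 68 genes was 0.044, a factor of 1.03, and single genes ranged from -0.11 to 0.32. Limma, with p-values adjusted by Benjamini-Hochberg over all genes and a threshold of 0.05, called 0 of the 68 higher and 0 lower, where 3.15% of all genes were called higher and 0.687% lower. At an unadjusted p under 0.05 there were 3 members (4.41%), against 21% of all genes. The 95% intervals lay within 1.5-fold in either direction for all 68 genes and within 1.25-fold for 65 of them. Over all 19505 genes these counts were 18647 and 12686, and over the 104 other genes above 13 they were 104 and 86.

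The difference was above 0 for 58 of the 68 genes. All genes had a median of -0.025 and the other genes above 13 a median of 0.035. After a further quantile normalization, which gives every array the same distribution of values, 46 of the 68 were above 0, and after cyclic loess 38. With the mean signals of neutrophil and of B-cell markers added as covariates the median of the members was -0.0012.

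Rpl39, a protein that lines the exit tunnel for the new peptide, came closest to the threshold. It read 9.78, 9.76, 9.92, 9.98 and 9.81 in the BALB/c mice of 12 weeks, and 10.25, 10.04, 10.07, 10.47 and 10.01 in the NeuT mice of that age. The groups did not overlap. The means were 9.85 ± 0.097 (SD, n = 5) and 10.17 ± 0.19 (n = 5), a difference of 0.32 ± 0.090 (SE), or 1.24-fold with a 95% interval of 1.09 to 1.42, and the adjusted p was 0.0508. Both means were under the control probes' 95th percentile, where an array signal can understate a change in transcript level. The call turned on single arrays: Rpl39 passed in 4 of 18 fits without 1 array, which left out NeuT 12-week replicate 5 (adjusted p = 0.0264), BALB/c 24-week replicate 3 (0.0296), NeuT 24-week replicate 2 (0.048) or BALB/c 24-week replicate 1 (0.0484), and reached 0.14 in the least favourable fit.

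The only other member without overlap at 12 weeks was Rps9, a small-subunit protein. It read 12.97 to 13.03 in BALB/c and 13.06 to 13.11 in NeuT mice, with a difference of 0.079 ± 0.060 (SE) and an adjusted p of 0.471. Thus 2 of the 68 genes were higher without overlap and 0 lower, against 4.63% and 2.82% of all genes.

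Next by p-value came Rpl36, a large-subunit protein, and Rpl7l1, a relative of Rpl7 that takes part in early assembly of the large subunit. Rpl36 read 10.98, 10.89, 11.00, 11.05 and 10.93 in BALB/c and 11.13, 11.13, 11.04, 11.22 and 11.02 in NeuT mice, with a difference of 0.14 ± 0.062 (SE) and an adjusted p of 0.211. Rpl7l1 read 10.64, 10.76, 10.82, 10.69 and 10.75 against 10.91, 10.85, 10.89, 10.79 and 10.94, with a difference of 0.15 ± 0.067 (SE) and an adjusted p of 0.217. In both genes the lowest NeuT arrays overlapped the highest BALB/c arrays. Rpl23, which binds Mdm2 when it is free of the ribosome, differed by 0.13 ± 0.071 (SE; adjusted p = 0.292), and Rps7 by 0.13 ± 0.076 (SE; adjusted p = 0.342).

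At 24 weeks again no member passed. The median difference was larger, 0.13 (a factor of 1.10), with 64 of the 68 genes above 0, while all genes had a median of -0.00014. Limma called 0 of the 68 in either direction, where 1.18% of all genes were called higher and 0.22% lower. At an unadjusted p under 0.05 there were 14 members, all higher in NeuT mice (20.6%, against 13.2% of all genes). That count turned on single arrays: it was 6 without BALB/c 24-week replicate 1 or 3, 7, 9 and 5 without NeuT 24-week replicates 1, 3 and 4, and 32 and 34 without BALB/c 24-week replicates 2 and 4. After the further quantile normalization it was 3, and without both low BALB/c arrays it was 1. It was 30 with trended and robust variances and 2 with array weights. The main fit shares 1 estimate of the spread among the groups, while most members spread widest in the BALB/c 24-week group. For Rpsa the SD there was 0.21, against 0.023, 0.049 and 0.020 in BALB/c 12-week, NeuT 12-week and NeuT 24-week mice. In a fit on the groups of 24 weeks alone the count was 5, and 0.00513% of all genes were called, against 1.4%. The share of all genes called in either direction at 24 weeks also moved, to 0.041% without NeuT 24-week replicate 1, 0.0461% without replicate 4 and 3.29% without replicate 2 of that group, and to 0.113% without BALB/c 24-week replicate 3. The interval was within 1.5-fold for all 68 genes and within 1.25-fold for 48. Over all 19505 genes these counts were 18518 and 11926, and over the 104 other genes above 13 they were 103 and 80.

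This common difference was also present in other genes of high signal, and it moved with BALB/c 24-week replicate 1. The 104 other genes above 13 had a median of 0.097 at 24 weeks. Without that array the median of the members was 0.068, and without replicate 3 as well it was 0.019. After the further quantile normalization it was 0.025, with 52 of the 68 genes above 0.

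**Figure D2:**
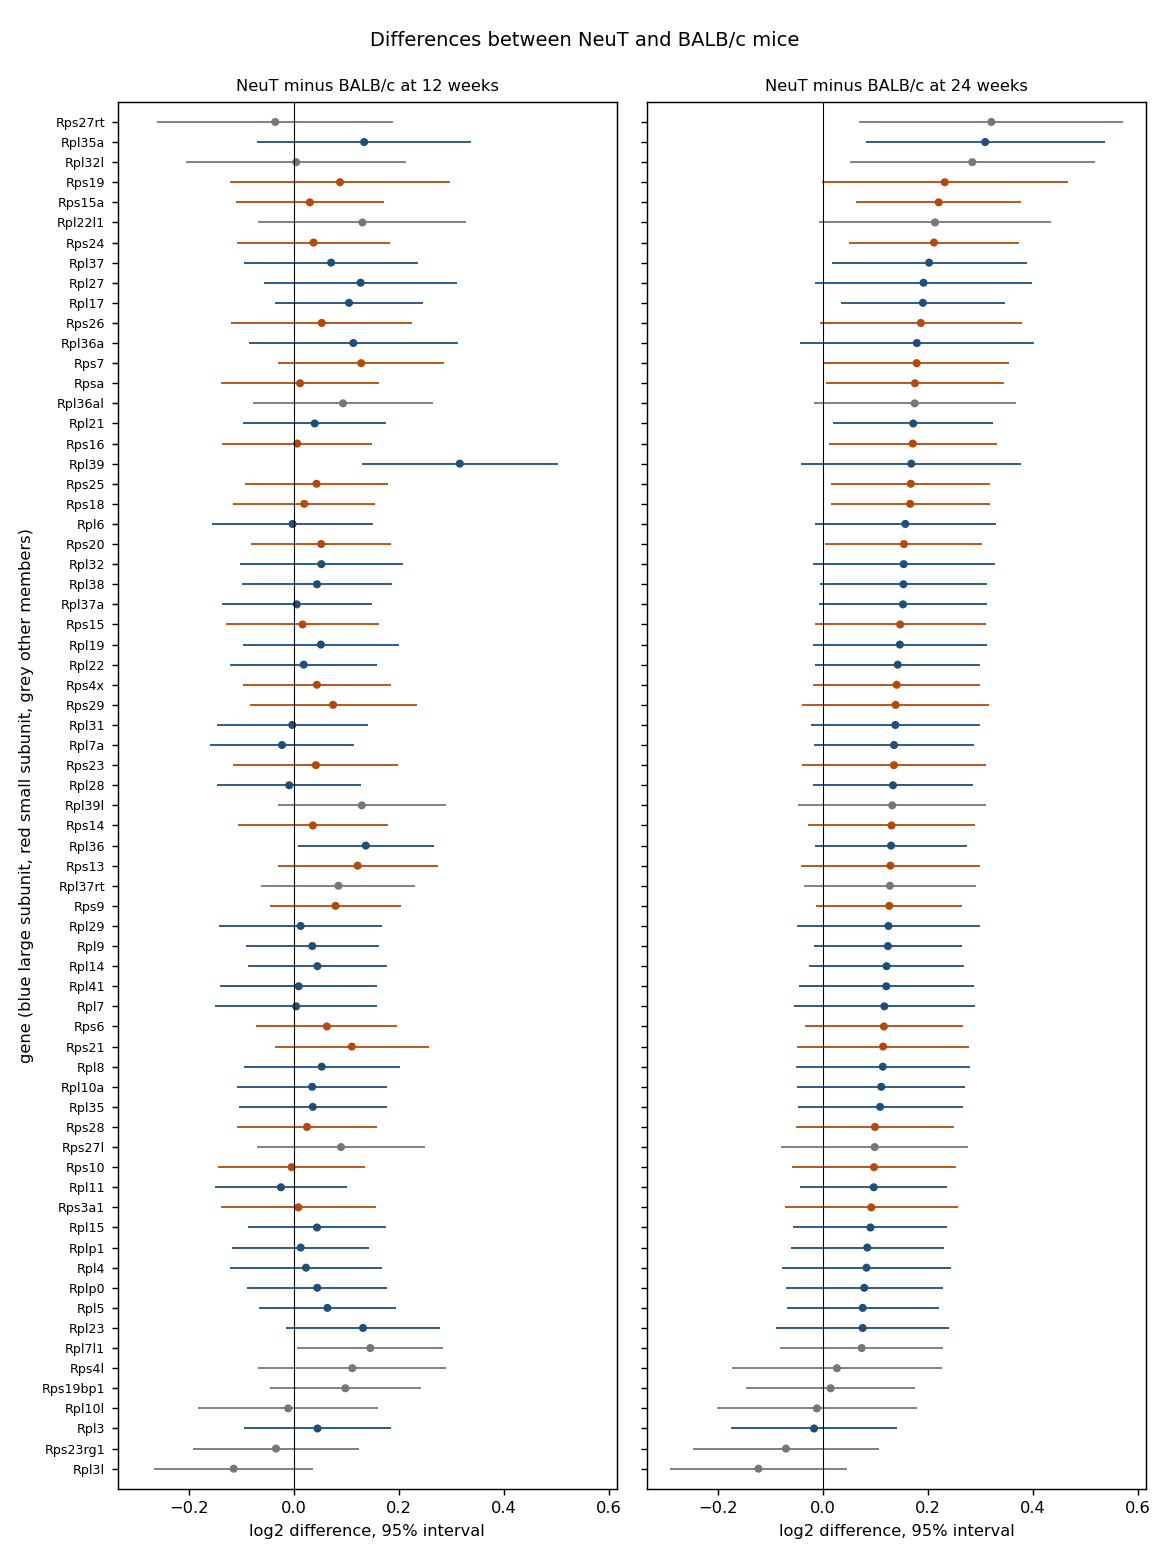
Difference of NeuT minus BALB/c (log2, horizontal axis) with its 95% interval for each of the 68 genes (vertical axis, in the order of the 24-week difference) at 12 weeks (left) and 24 weeks (right). Points at 24 weeks lie to the right of 0 for 64 genes with a median of 0.13, and at 12 weeks for 58 genes with a median of 0.044, with Rpl39 farthest out.

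At 24 weeks the median difference was 0.13 over the 33 large-subunit genes, 0.14 over the 22 small-subunit genes and 0.098 over the 13 other members, and 8 of the 22 small-subunit genes had an unadjusted p under 0.05 against 4 of the 33 large-subunit genes. These are among the 14 genes whose count fell to 6 without BALB/c 24-week replicate 1 and to 3 after quantile normalization. No test of the difference between the subunits was run.

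Rps15a, a small-subunit protein, had the smallest p-value at 24 weeks. It read 12.21, 12.40, 12.10 and 12.32 in BALB/c and 12.51, 12.42, 12.44 and 12.54 in NeuT mice, without overlap. The means were 12.26 ± 0.13 (SD, n = 4) and 12.48 ± 0.058 (n = 4), a difference of 0.22 ± 0.076 (SE) with an adjusted p of 0.173.

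Rpl35a, a large-subunit protein mutated in some cases of Diamond-Blackfan anaemia, read 12.46, 12.68, 12.02 and 12.73 in BALB/c and 12.79, 12.73, 12.77 and 12.84 in NeuT mice. The lowest value was that of BALB/c replicate 3, and the highest BALB/c value equalled the lowest NeuT value to 2 decimals. The difference was 0.31 ± 0.11 (SE), with an adjusted p of 0.191. Rps24, mutated in the same disease, read 12.82, 13.21, 12.92 and 13.16 against 13.25, 13.22, 13.24 and 13.24, with a difference of 0.21 ± 0.078 (SE) and an adjusted p of 0.217. In Rps24 the 4 NeuT values lay within a narrow band and BALB/c replicates 1 and 3 were the lowest.

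The retrogene Rps27rt read 11.35, 11.69, 11.16 and 11.68 in BALB/c and 11.87, 11.69, 11.70 and 11.90 in NeuT mice, with a difference of 0.32 ± 0.12 (SE) and an adjusted p of 0.230. Rpl32l read 11.28, 11.40, 10.76 and 11.44 against 11.57, 11.39, 11.42 and 11.63, with a difference of 0.28 ± 0.11 (SE) and an adjusted p of 0.258. In both retrogenes BALB/c replicates 1 and 3 were the 2 lowest arrays of the age and the remaining BALB/c arrays overlapped the NeuT group.

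Between the groups of 24 weeks 6 genes did not overlap, all higher in NeuT mice: Rpl21, Rpl36, Rpl38, Rps15a, Rps24 and Rpsa. Over all genes 4.95% were higher and 1.76% lower without overlap. Rpsa read 13.56, 13.99, 13.96 and 13.98 in BALB/c and 14.08, 14.03, 14.04 and 14.05 in NeuT mice, so 3 of its BALB/c arrays lay close under the NeuT arrays and replicate 1 far below. Rpl36 read 10.90, 11.07, 11.03 and 10.96 against 11.11, 11.09, 11.13 and 11.15, with a difference of 0.13 ± 0.070 (SE) and an adjusted p of 0.442. Its differences at the ages were 0.14 and 0.13, and the difference of the effects was -0.0076 ± 0.094 (SE; adjusted p = 0.996).

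**Figure D3:**
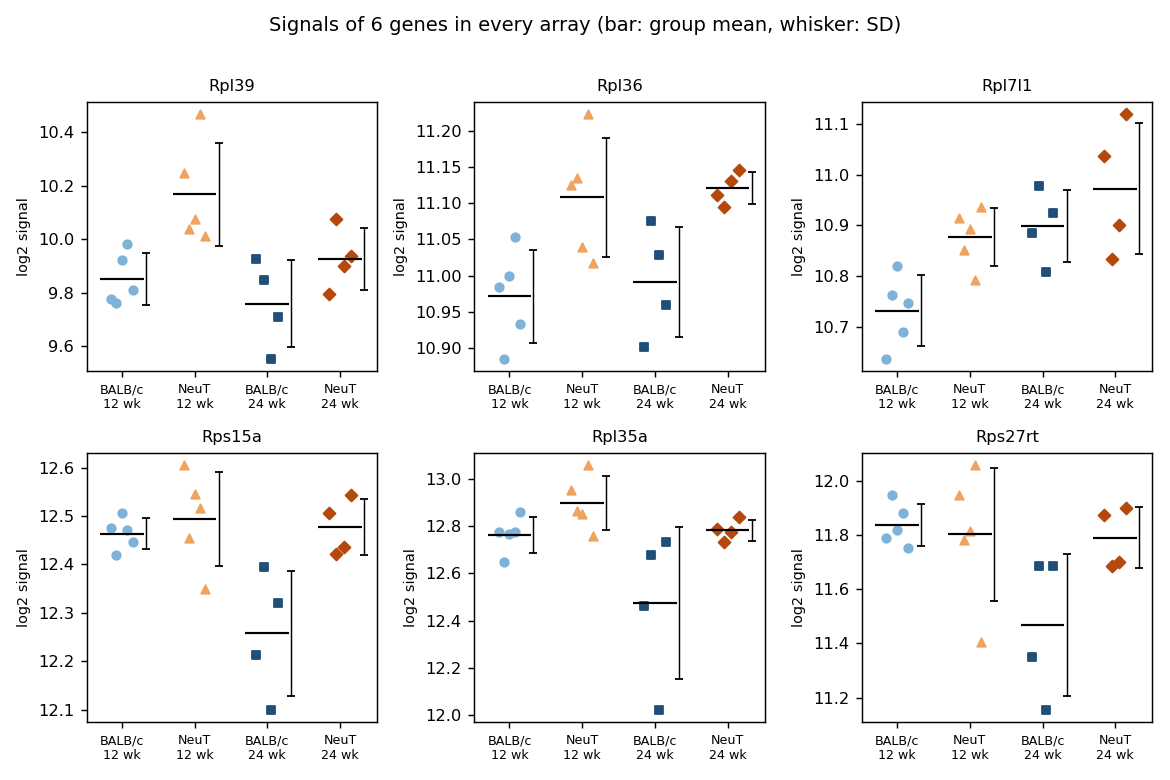
Log2 signal (vertical axis) of Rpl39, Rpl36, Rpl7l1, Rps15a, Rpl35a and Rps27rt in every array of the 4 groups (horizontal axis); points are arrays, bars are group means and whiskers are SDs. The genes were picked for display after their values were seen. Rpl39 is separated at 12 weeks (9.76 to 9.98 against 10.01 to 10.47), while in Rps15a, Rpl35a and Rps27rt the BALB/c 24-week group holds the low values.

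Whether the NeuT effect differs between the ages was tested as an interaction. No member passed, where 0.00513% of all genes passed in each direction. At an unadjusted p under 0.05 there was 1 of the 68 (1.47%), against 6.5% of all genes. The median of the members was 0.084, against 0.020 over all genes and 0.097 over the other genes above 13. The smallest p belonged to Rps27rt, with 0.36 ± 0.16 (SE; adjusted p = 0.750). Rps15a followed with 0.19 ± 0.10 (SE; adjusted p = 0.795), Rpl32l with 0.28 ± 0.15 (SE; adjusted p = 0.795), Rps24 with 0.17 ± 0.11 (SE; adjusted p = 0.824) and Rpl7a with 0.16 ± 0.099 (SE; adjusted p = 0.834).

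With age (24 minus 12 weeks) the members had a median of -0.094 in BALB/c mice and -0.0080 in NeuT mice. Limma called 0 of the 68 in either mouse model. In BALB/c mice 0.333% of all genes were called higher and 0.246% lower, and 7 members had an unadjusted p under 0.05, of which 6 were lower at 24 weeks (10.3%, against 15.3% of all genes). That count was 21 and 23 without BALB/c 24-week replicates 2 and 4, 11 without NeuT 12-week replicate 4, and 3 without both low BALB/c 24-week arrays. Over all genes the median was -0.018 and over the other genes above 13 it was -0.099. This comparison shares the BALB/c 24-week arrays with the NeuT comparison of that age, and without replicates 1 and 3 its median was 0.011. Any difference in processing between the ages cannot be told apart from age.

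Among single genes in BALB/c mice, Rpl32l differed by -0.35 ± 0.11 (SE; adjusted p = 0.114), Rps27rt by -0.37 ± 0.12 (SE; adjusted p = 0.115) and Rpl21 by -0.21 ± 0.070 (SE; adjusted p = 0.134). Rpl21, a large-subunit protein, read 12.46, 12.50, 12.50, 12.55 and 12.51 at 12 weeks and 12.11, 12.41, 12.27 and 12.38 at 24 weeks. Rps15a differed by -0.21 ± 0.072 (SE; adjusted p = 0.158) and Rps16 by -0.21 ± 0.073 (SE; adjusted p = 0.166). The 5 genes lower at 24 weeks without overlap were Rpl21, Rpl32l, Rps15a, Rps27rt and Rpsa, where 3.38% of all genes were higher and 3.57% lower without overlap.

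In NeuT mice 0.0256% of all genes were called higher and 0.0103% lower with age. Of all genes 12.6% had an unadjusted p under 0.05, and so had 1 member (1.47%). This was Rpl39, which read 9.79, 10.08, 9.90 and 9.94 at 24 weeks, a difference of -0.24 ± 0.096 (SE; adjusted p = 0.283). Rpl11, which binds Mdm2 and thereby stabilises p53 when ribosome assembly is disturbed, was the only member without overlap: 12.65, 12.66, 12.55, 12.58 and 12.63 at 12 weeks and 12.69, 12.73, 12.73 and 12.77 at 24 weeks. Its difference was 0.12 ± 0.064 (SE; adjusted p = 0.451), and 2.96% of all genes were higher and 2.12% lower without overlap. The next genes by p were Rpl7l1 (0.094, adjusted p = 0.645), Rpl23 (-0.097, adjusted p = 0.659) and Rps7 (-0.10, adjusted p = 0.659).

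The members varied together from array to array. When each gene was centred on its mean over the 18 arrays, the median of the 68 genes in an array ran from -0.26 in BALB/c 24-week replicate 1 to 0.098 in NeuT 12-week replicate 4. In BALB/c 24-week replicate 1 all 55 canonical genes lay below their means, in replicate 3 of that group 48 did, and in NeuT 12-week replicate 4 only 1 did. The other genes above 13 read -0.29 in BALB/c 24-week replicate 1, -0.044 in replicate 3 and 0.037 in NeuT 12-week replicate 4. Set against genes of the same signal in BALB/c 24-week replicate 1, the 33 members above 13 read -0.30 and the other genes -0.29, and the 22 members between 12 and 13 read -0.22 and the other genes -0.19. In replicate 3 of that group the members above 13 read -0.095 and those between 12 and 13 read -0.18, where the other genes read -0.044 and -0.058. In NeuT 12-week replicate 4 the members read 0.072 and 0.19, and the other genes 0.037 and 0.041.

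**Figure D4:**
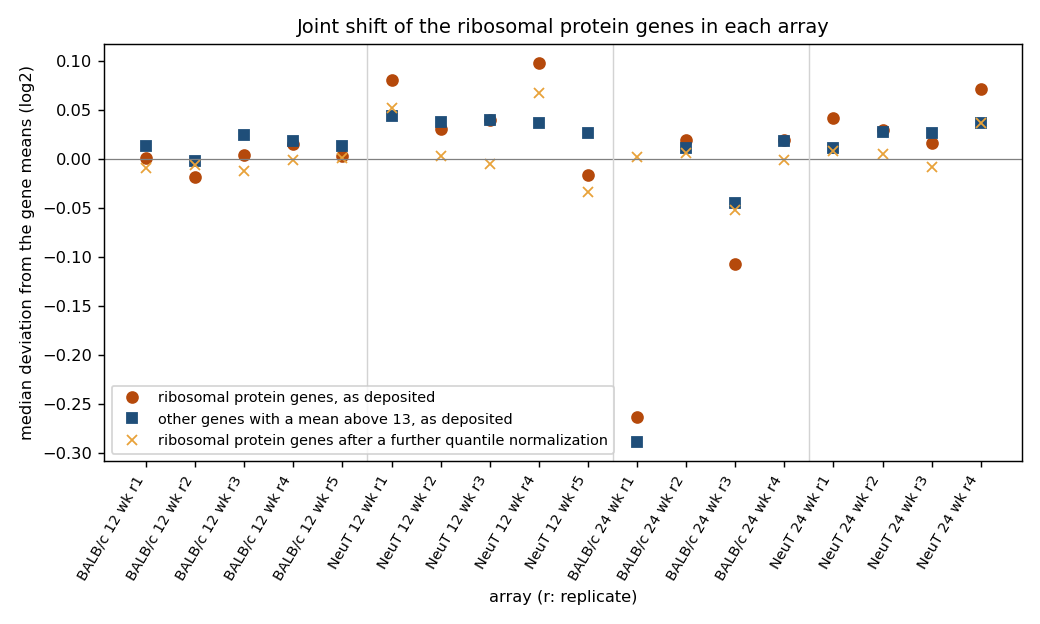
Median deviation from the gene means (log2, vertical axis) in each of the 18 arrays (horizontal axis) for the 68 genes as deposited, for the 104 other genes with a mean above 13, and for the 68 genes after a further quantile normalization. BALB/c 24-week replicate 1 is low for both sets as deposited (-0.26 and -0.29) and lies at 0.0024 after normalization, when the members range from -0.051 to 0.067.

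Co-variation was described with the deviations of each gene from its group means, over the 2278 pairs of members. The median Pearson correlation was 0.57, the middle of the distribution ran from 0.25 to 0.76, and 86.7% of pairs were positive. It was 0.64 within the large subunit, 0.70 within the small subunit, 0.67 across the subunits and 0.23 between canonical and other members. Pairs of the other genes above 13 had a median of 0.49 and pairs of all genes 0.039. The points of each correlation share the array, its normalization and its mix of cells, and no p is given.

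Without BALB/c 24-week replicate 1 the median over pairs of members was 0.45, while that of the other genes above 13 was 0.065 and that of all genes 0.0030. After the further quantile normalization the members had 0.18 and the other genes above 13 had -0.0093. In each of these settings the median of the members lay above that of the other genes above 13.

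**Figure D5:**
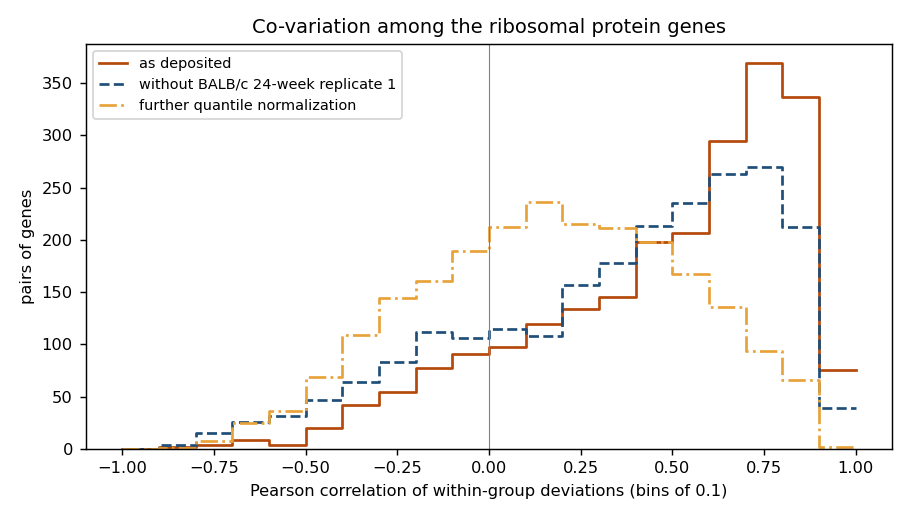
Number of pairs of members (vertical axis) by Pearson correlation of their deviations from the group means (horizontal axis, bins of 0.1), as deposited, without BALB/c 24-week replicate 1 and after a further quantile normalization. The median moves from 0.57 to 0.45 and 0.18.

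Single members followed the rest to different degrees. The correlation with the median of the other members was highest for Rpl22 (0.95), Rpl31 (0.95) and Rpl19 (0.94), and was above 0.5 for 56 of the 68 genes, for 49 without BALB/c 24-week replicate 1 and for 36 after quantile normalization. It was lowest for Rpl10l, a testis retrogene of Rpl10 (-0.38), Rps4l (-0.24), listed by RefSeq as a transcribed pseudogene, and Rps23rg1 (-0.12). Rpl31 read 13.43, 13.80, 13.61 and 13.82 in the BALB/c mice of 24 weeks and 13.72 to 13.85 in all other arrays, so replicates 1 and 3 of that group lay below every other array. Rpl39 had 0.14 as deposited and 0.70 without BALB/c 24-week replicate 1, in which it was the highest of its group at 9.92. Outside the members, the genes that followed them most closely were Pabpc1 (0.96), Ftl1 (0.95), Zfp207 (0.94), Atp5b (0.93) and Ndufa9 (0.93), and without that array the first was Psmd2 (0.98).

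The 13 members that are not canonical subunits had medians of 0.090 at 12 weeks and 0.098 at 24 weeks, and none passed. Among paralogues above the controls, Rpl22l1, which is known to be held down by Rpl22, differed by 0.13 ± 0.096 (SE; adjusted p = 0.453) and 0.21 ± 0.11 (SE; adjusted p = 0.400) at the respective ages. Rpl36al, a retrogene of Rpl36a, differed by 0.094 and 0.17, Rpl37rt by 0.085 and 0.13, and Rps27l, a target of p53, by 0.090 and 0.098. Of those with means under the 95th percentile of the controls, Rps19bp1, which binds Rps19 and is no subunit, differed by 0.098 and 0.014, Rpl39l differed by 0.13 and 0.13, Rps4l by 0.11 and 0.026, Rpl10l by -0.011 and -0.012, Rps23rg1 by -0.034 and -0.071, and Rpl3l by -0.11 and -0.12.

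Genes that work with the ribosomal proteins were followed as lists. Of the factors for processing of ribosomal RNA and assembly of the subunits, 44 of 47 were measured, and 4 rose in NeuT mice at 12 weeks while none passed at 24 weeks (0 at an unadjusted p under 0.05). Their median difference was 0.14 at 12 weeks and 0.0013 at 24 weeks, and at 12 weeks 20 of the 44 (45.5%) had an unadjusted p under 0.05, against 21% of all genes. The 4 calls are 9.09% of the list, against 3.15% of all genes called higher. The 4 were Wdr12, a member of the PeBoW complex of the large subunit, with 0.45 ± 0.11 (SE; adjusted p = 0.0236), Nop2, a ribosomal RNA methyltransferase, with 0.31 ± 0.070 (SE; adjusted p = 0.0177), Rpf2, which brings in the 5S particle, with 0.30 ± 0.085 (SE; adjusted p = 0.0447), and Nop16, with 0.28 ± 0.072 (SE; adjusted p = 0.0276).

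Nop2 read 11.28 ± 0.034 (SD, n = 5) in BALB/c and 11.59 ± 0.12 (n = 5) in NeuT mice at 12 weeks, and 11.61 ± 0.054 (n = 4) and 11.56 ± 0.13 (n = 4) at 24 weeks. As an interaction none of the 44 passed, where 0.00513% of all genes passed in each direction. Their median was -0.14, and 14 (31.8%) had an unadjusted p under 0.05, against 6.5% of all genes. The effects of the ages were not shown to differ for any single gene, in a test that hardly any gene passed. With age in BALB/c mice the 44 had a median of 0.15, and both comparisons share the BALB/c 12-week arrays. In this age comparison 21 of the 44 (47.7%) had an unadjusted p under 0.05, against 15.3% of all genes. Nop2 (0.32 ± 0.075 SE, adjusted p = 0.0474) and Mybbp1a (0.31 ± 0.073 SE, adjusted p = 0.0492) passed. Both calls ended without BALB/c 24-week replicate 1, a fit that called 0 of all genes with age in BALB/c mice. They also ended in most other fits without 1 array, as Nop2 passed in 6 and Mybbp1a in 3 of 18. At 12 weeks the count of assembly genes called higher moved with single arrays. The share of all genes called in either direction, 3.84% in the main fit, moved as well. The count was 0 without BALB/c 12-week replicate 1 (1.62% of all genes) or NeuT 12-week replicate 4 (1.55%). It was 1 without BALB/c 12-week replicate 2 (1.18%) or NeuT 12-week replicate 1 (2.55%), and 2 without BALB/c 12-week replicate 4 (2.34%). It was 9 without NeuT 12-week replicate 5 (6.99%) and 11 without BALB/c 24-week replicate 3 (6.94%). Among the 18 fits without 1 array, Nop2 passed in 16, Wdr12 in 14, Nop16 in 12 and Rpf2 in 4. With neutrophil and B-cell means as covariates 0 of the 44 rose. That fit called 0.0205% of all genes at 12 weeks, against 3.84% in the main fit. It could hardly call any gene, so the 0 says little about this list.

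Of the genes for RNA polymerase I, which makes ribosomal RNA, 17 of 18 were measured. Between NeuT and BALB/c mice at 12 weeks 6 of the 17 (35.3%) had an unadjusted p under 0.05, against 21% of all genes. With age in BALB/c mice there were also 6 (35.3%), against 15.3% of all genes. Polr1e, a subunit of the enzyme, rose in NeuT mice at 12 weeks, from 9.52 ± 0.16 (SD, n = 5) to 10.06 ± 0.29 (n = 5), by 0.54 ± 0.12 (SE, adjusted p = 0.0142). It was the 1 call of the list (5.88%), against 3.15% of all genes called higher. Among the fits without 1 array the call ended only without BALB/c 12-week replicate 2. It also ended with the blood-cell covariates, a fit that called 0.0205% of all genes. None of the 17 passed at 24 weeks, where the smallest p was that of Taf1b (0.25, adjusted p = 0.400), and Rrn3, the initiation factor of the enzyme, rose with age in BALB/c mice (0.41 ± 0.089 SE; adjusted p = 0.0424), a call that ended in 10 of 18 fits without 1 array.

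Myc, the transcription factor known to raise ribosome production, rose in NeuT mice at 12 weeks. It had been placed in a list of mTORC1 and TOP regulators and was the only gene called among the 16 measured. No other gene of that list passed at this age. That call is 6.25% of the list, against 3.15% of all genes called higher. Myc read 10.79 ± 0.14 (SD, n = 5) in BALB/c and 11.32 ± 0.26 (n = 5) in NeuT mice, a difference of 0.53 ± 0.11 (SE, adjusted p = 0.0124), which passed in all 18 fits without 1 array. At 24 weeks it read 11.50 ± 0.17 (n = 4) and 11.74 ± 0.22 (n = 4), the interaction was -0.29 ± 0.17 (SE; adjusted p = 0.815), and none of the 16 passed. With age Myc rose in BALB/c mice by 0.71 ± 0.12 (SE; adjusted p = 0.0134), but not without BALB/c 24-week replicate 1 or 2. After adding both marker means as covariates none of these 16 genes passed at 12 weeks, in a fit that called 0.0205% of all genes.

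Translation factors whose transcripts carry the TOP motif were all measured, and limma called none of the 16 in any comparison. Their median differences were 0.010 at 12 weeks and 0.11 at 24 weeks, and 0 had an unadjusted p under 0.05 at either age. The smallest p at those ages were those of Naca (0.10, adjusted p = 0.365) and Eif3k (0.17, adjusted p = 0.408). Of 16 other initiation factors, Eif4a1, the RNA helicase that unwinds messenger RNA leaders, rose in NeuT mice at 12 weeks (0.35 ± 0.090 SE, adjusted p = 0.0300). This 1 call is 6.25% of the list, against 3.15% of all genes called higher. It was lost without BALB/c 12-week replicate 2, 3 or 5 or NeuT 12-week replicate 1. None of these 16 passed at 24 weeks. The Eif4a1 call also ended after quantile normalization and with the blood-cell covariates, a fit that called 0.0205% of all genes. Fau, which encodes a ribosomal protein of the small subunit under another symbol, differed by 0.068 ± 0.069 (SE) and 0.067 ± 0.077 (SE) at the respective ages (adjusted p = 0.596 and 0.752).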

How the data were processed

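RNA from 18 mice was hybridised to 1 array each. Per the submitters' processing notes, the authors made the deposited log2 values with RMA and the Transcriptome Analysis Console, with versions and array build not given in the sources used here. Replicates are different mice, and the labels give no batch. Of 29129 probe sets in the table, 19572 had 1 gene symbol. For the 55 genes with more than 1, the probe set with the highest mean was kept, leaving 19505 genes without a filter on low signals. All 68 members were tested.

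A mean per group was fitted with limma 3.58.1 in R 4.3.3 (14 residual degrees of freedom), with two-sided tests adjusted by Benjamini-Hochberg over all genes. On simulated data the fit was checked with known changes. Sequence features were counted in Python 3.11.15. The number of arrays limits the precision.

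The members, gene lists, motifs and the other alternatives were chosen with earlier results of these data known. Named members are, for each comparison, the 5 with the smallest p, where fewer pass; those with the 3 highest and lowest means and the 3 largest spreads; those with the 3 highest and lowest correlations with the rest; and the listed paralogues. From other lists, up to 3 passing genes or the gene with the smallest p were named. Rps9, Rpl38, Rpl37rt, Nop16 and the genes of one plot were added after their values were seen, as were the fits without both low BALB/c 24-week arrays and with normalization and array removal combined. The other alternatives were median centring, a filter on dim genes, means of probe sets, trended and robust variances, array weights, fits on the groups compared, blood-cell covariates and leaving out each array.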

Additional observations from a re-analysis of the deposited data

Results flagged for a closer look

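In 5 of 124 groups checked, 1 array lay apart from the rest of its group by Dixon's test (gap over range), which chance alone gives in about 1 in 20 groups. In the BALB/c mice of 24 weeks this was replicate 1 for Rpl41 (ratio 0.868, 13.63 against 14.02 to 14.08), Rpsa (0.933, 13.56 against 13.96 to 13.99) and Rpl35 (0.856, 13.52 against 13.80 to 13.85). These are the 3 members with the highest means, and this array had the lowest top signal of all arrays. In the same group replicate 3 read high for Rps23rg1 (ratio 0.930, 8.59 against 8.26 to 8.28), a member with low signal, while most members were low in it. Non-members with means from 8 to 9 also read high in that array, with a median of 0.093 above their gene means. In the NeuT mice of 12 weeks replicate 1 read high for Rps24 (ratio 0.873, 13.29 against 13.19 to 13.20).

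Rpl7a, a large-subunit protein, differed in opposite directions at the 2 ages, by -0.023 at 12 weeks and 0.13 at 24 weeks, and the difference of 0.16 between the effects did not pass limma's interaction test (adjusted p = 0.834).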

How the results depend on the processing

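No member was called in the main fit, so no call of a member could reverse. The 12-week median of the members was 0.044 in the main fit and -0.0012 with blood-cell covariates. It moved by less than 0.068, the SD of array medians within groups, under each alternative. That SD is larger than the median itself, so this bound does not show that the median was stable. Without both low BALB/c 24-week arrays, the median for the difference of the NeuT effects (0.084 in the main fit) changed sign. So did that for BALB/c mice with age (-0.094 in the main fit). For the 24-week comparison the median of the members was 0.025 after further quantile normalization, 0.037 after cyclic loess, 0.054 with array weights, 0.019 without both low BALB/c 24-week arrays and 0.026 with normalization and without BALB/c 24-week replicate 1. For the difference of the NeuT effects it was 0.011 after quantile normalization, -0.026 without both low arrays and 0.0055 with both changes. For BALB/c mice with age it was -0.015 after quantile normalization, -0.026 with array weights, 0.011 without both low arrays and -0.010 with both changes. Median co-variation was 0.18 after quantile normalization, 0.16 after cyclic loess, 0.65 with a filter on dim genes, 0.61 with blood-cell covariates, 0.65 without the 3 arrays that correlate least, 0.31 without both low arrays, 0.20 with both changes, and 0.45 to 0.64 without 1 array.

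The count of members higher at 12 weeks was 1 of 68 (Rpl39) with trended and robust variances (adjusted p = 0.0445), with array weights (0.0319) and without both low arrays (0.0315). Of all genes, the fits with these settings called 4.19%, 10.7% and 7.58% in either direction. Without 1 array the count was 0 to 1, where 1.18% to 6.99% of all genes were called. With age in BALB/c mice, 2 members were called higher and 1 lower with array weights, and 1 lower without the 3 arrays that correlate least, where 12.2% and 6.55% of all genes were called. Assembly genes called higher at 12 weeks are given with the share of all genes tested that was called in either direction. They numbered 2 after quantile normalization (3.52%), 2 after cyclic loess (3.65%), 11 with the filter on dim genes (13%) and 8 with trended and robust variances (4.19%). With array weights they numbered 13 (10.7%), with blood-cell covariates 0 (0.0205%) and without both low arrays 14 (7.58%). Without 1 array they numbered 0 to 11 (1.18% to 6.99%). The cause of these changes was not tested. No paired analysis was possible because the labels give mouse numbers and no replicate numbers shared between groups.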
